A study of Mus musculus with 3 samples.

Results

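The 5 genes described here, *Gata1*, *Zfpm1*, *Klf1*, *Nfe2* and *Mef2c*, encode transcription factors or cofactors of the megakaryocyte and erythroid lineages. They were chosen by name out of the 27,985 genes of the deposited count table, and each was found there as 1 row. Their levels were described across the 7 deposited clusters of 9,562 single cells, and their presence together in a cell was described in cluster 5 (1,572 cells) and cluster 6 (310 cells).

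GATA1 is the zinc-finger factor that megakaryocytes, erythroid cells, mast cells and eosinophils share, and *Zfpm1* encodes FOG1, the cofactor through which GATA1 acts at many of its targets in red cells and megakaryocytes. KLF1 binds CACC boxes and drives the globin, membrane and haem genes of erythroid cells, and it opposes the megakaryocyte programme. NFE2, the p45 subunit that pairs with a small MAF protein, is required for platelet release, and MEF2C is a MADS-box factor known from muscle and endothelium that also acts in megakaryocytes and in myeloid and lymphoid cells.

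The cells came from 12–16-week-old female GFP+ mice, which carry GFP as a transgene. Heart endothelium was sorted as GFP+, CD31+, VE-Cad+, CD41-, CD45-, PDGFRA- and PDGFRB-, and was either taken fresh (0 h) or aggregated with PDGFRA+ stromal cells of the *Mesp1* lineage (*Mesp1*der PSCs), sorted from the aorta–gonad–mesonephros of E11.5 *Mesp1*–DsRed+ embryos, and cultured with IL-3, SCF and Flt3L for 24, 48, 72 or 96 h. After culture the gate was GFP+, CD31+, VE-Cad+ and PDGFRA-, without exclusion of CD41 or CD45. All times were pooled before capture, in 3 independent pools. The barcodes carry 3 library suffixes, no cell is tied to a time, and which suffix belongs to which pool is not given. Cells of the 3 libraries were summed and the value of each library is shown beside the sum. The authors made the clusters from these same counts, so a test between clusters would not be independent of them, and no P value is given.

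Every value is a count of unique molecular identifiers (UMIs), 1 for each captured messenger RNA. Levels are summed UMIs per 10,000 UMIs of the same cells, and all intervals are 95% intervals that cover counting error only. Median depth ran from 7,875 UMIs per cell in cluster 1 to 36,065.5 in cluster 5 (32,186 in cluster 6), and library medians ran from 13,440.5 to 38,312. Shares of cells are therefore given after each cell had been thinned at random to 5,000 UMIs, beside the share of cells as deposited. The 8 endothelial markers summed to between 34.1 and 49.3 UMIs per 10,000 in clusters 0, 1 and 2, in which the label of endothelium held, and to between 3.97 and 6.18 in clusters 3 to 6. The 8 megakaryocyte markers summed to 203 in cluster 6 (160 to 233 across libraries) and to at most 1.94 elsewhere. Cluster 5 held macrophage (19.4), neutrophil and myeloid progenitor (16) and erythroid (24.2) markers together. The erythroid sum was higher in cluster 6 (36.7), and in library suffix 3 it was only 2.43 in cluster 5 and 5.98 in cluster 6. Stromal markers were highest in cluster 4 (20.1), as were those of heart and smooth muscle (8.39).

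The stretches before the start sites of *Klf1*, *Gata1* and *Zfpm1* are shown because these 3 genes were found together in the same cells of cluster 5, as described further on. The RefSeq promoter table, on build GRCm38.p6, matched 4 of the 5 genes, with 3 windows for *Mef2c*. Each window runs from 250 bases before a start to 50 after it, and only the bases outside exons of GENCODE release M21 are printed, 5′ to 3′ on the strand of the gene. Capitals mark the GATA motif, for which the letters AGATAA and AGATAG as well as TGATAA and also TGATAG were searched, and the CACC-type box CCNCNCCC, whose letters also fit GC boxes. Both were searched on both strands, and matches of the 2 motifs did not overlap, since no window held both. The core TGAGTCA that NFE2 shares with AP-1 was searched in the same way.
*Klf1*, chr8:84901732-84901927, plus strand: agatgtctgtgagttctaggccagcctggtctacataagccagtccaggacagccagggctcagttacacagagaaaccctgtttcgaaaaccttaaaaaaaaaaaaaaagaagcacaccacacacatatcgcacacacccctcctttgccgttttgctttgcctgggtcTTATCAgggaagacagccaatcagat
*Gata1*, chrX:7967911-7968160, minus strand: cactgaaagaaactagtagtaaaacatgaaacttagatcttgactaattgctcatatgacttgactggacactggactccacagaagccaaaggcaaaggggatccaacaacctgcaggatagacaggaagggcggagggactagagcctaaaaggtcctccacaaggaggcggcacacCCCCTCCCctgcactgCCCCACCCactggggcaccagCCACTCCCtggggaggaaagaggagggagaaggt
*Zfpm1*, chr8:122281891-122282140, plus strand: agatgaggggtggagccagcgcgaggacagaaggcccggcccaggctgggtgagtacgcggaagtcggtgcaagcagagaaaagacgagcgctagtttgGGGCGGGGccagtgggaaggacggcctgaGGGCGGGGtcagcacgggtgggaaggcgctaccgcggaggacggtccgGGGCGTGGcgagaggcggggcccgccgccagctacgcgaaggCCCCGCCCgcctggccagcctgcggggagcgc

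The *Klf1* window held 1 GATA motif, which is read as TTATCA on the printed strand, and no CACC-type box. The *Gata1* window held 3 CACC-type boxes and the *Zfpm1* window 4, on either strand, and neither held a GATA motif. Of all 32,851 windows in the table, 29.8% held a GATA motif, 49.5% a CACC-type box and 5.20% the TGAGTCA core, which was found in none of the 6 windows of these genes. In the first *Mef2c* window 1 CACC-type box was found. These matches describe letters and do not show binding.

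*Gata1* (ENSMUSG00000031162, protein-coding, GRCm38 chromosome X, 7959260 to 7978071, minus strand) had 2,952 of its 3,020 UMIs in clusters 5 and 6. Cluster 6 held 1.51 UMIs per 10,000 (1.44–1.59), with 1.59, 1.43 and 1.5 in library suffixes 1, 2 and 3. Cluster 5 held 0.217 (0.205–0.229), with 0.225, 0.238 and 0.192, so that every library of cluster 6 lay above every library of cluster 5. The other 5 clusters had between 0.00253 and 0.0168, and the highest of these, in cluster 3, rested on 12 UMIs of which 8 were in 1 cell. At 5,000 UMIs per cell *Gata1* was found in 41.7% of cells in cluster 6 (36.2–47.5%), 6.25% in cluster 5 (5.10–7.56%) and 0.175% in clusters 0, 1 and 2 (0.0906–0.306%). As deposited, these shares were 82.9%, 17.8% and 0.737%. Clusters 3 and 4, used as the reference for free RNA because neither is a blood or an endothelial cluster by its markers, had 0.133% (0.00337–0.740%) at a median depth of 20,089 UMIs before thinning, against 19,011 in clusters 0, 1 and 2 and 35,461 in clusters 5 and 6. The share in the endothelial clusters thus lay within the interval of that reference, which rested on 1 cell.

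*Zfpm1* (ENSMUSG00000049577, chromosome 8, 122282141 to 122337251, plus strand) was present in every cluster and was highest in cluster 6. There it stood at 3.13 UMIs per 10,000 (3.02–3.23), with 2.82, 3.39 and 3.25 across libraries. The next levels were 0.732 in cluster 0 (0.685–0.781; 0.745, 0.736 and 0.714 by library) and 0.663 in cluster 5 (0.642–0.683; 0.601, 0.794 and 0.646 by library), and these neighbours overlapped across libraries. Within the endothelial clusters the order was 0 before 1 (0.481) before 2 (0.373) in each library. At 5,000 UMIs per cell, 74.1% of cluster 6 cells held it (68.8–78.9%). The share was 20.2% for cluster 5, and it was 29.2%, 21.7% and 16.9% for clusters 0, 1 and 2. Clusters 3 and 4 together had 13% (10.7–15.7%), with 0.384 UMIs per 10,000 in cluster 4 and 0.189 in cluster 3. Cluster 2 (0.363–0.383) lay below cluster 4 by a small margin within the interval of the latter (0.349–0.421), and above clusters 3 and 4 together (0.310, 0.286–0.337). Clusters 0, 1, 5 and 6 were above cluster 4 with all libraries summed, but in library suffix 2 cluster 1 (0.485) was just below cluster 4 (0.489).

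*Klf1* (ENSMUSG00000054191, chromosome 8, 84901928 to 84905291, plus strand) had its highest level in cluster 5 and not in cluster 6. It stood at 0.307 UMIs per 10,000 in cluster 5 (0.294–0.322), with 0.282, 0.376 and 0.291 by library, and at 0.0752 in cluster 6 (0.0597–0.0935), with 0.104, 0.0620 and 0.0509. The libraries of the 2 clusters did not overlap. Few cells carried these UMIs: 45 cells, 2.86% of cluster 5, held at least 50% of its 1,877 *Klf1* UMIs, and up to 50 were in 1 cell. By contrast, 289 cells or 18.4% of that cluster held the same portion of its *Mef2c* UMIs. At 5,000 UMIs per cell *Klf1* was found in 8.04% of cluster 5 cells (6.74–9.49%) and 2.91% of cluster 6 cells (1.34–5.46%). The endothelial clusters had 0.336% (0.213–0.504%), and its interval overlapped that of the reference clusters 3 and 4 with 0.666% (0.216–1.55%). As deposited the shares in clusters 5 and 6 were closer, 15.5% and 12.3%. Cluster 3 held 0.0448 UMIs per 10,000, but 27 of its 32 UMIs were in 1 cell of library suffix 3, and its interval overlapped that of cluster 6.

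*Nfe2* (ENSMUSG00000058794, chromosome 15, 103248212 to 103258403, minus strand) was highest in cluster 6, at 0.80 UMIs per 10,000 (0.748–0.856), with 0.823, 0.836 and 0.731 by library. Cluster 5 followed at 0.216 (0.205–0.228), with 0.197, 0.25 and 0.217. The libraries of the 2 clusters did not overlap. The remaining clusters had between 0.00306 and 0.0207, and the top of that range was cluster 0 (0.0135–0.0303), above cluster 2 at 0.00306 (0.00221–0.00412). In cluster 0 these were 26 UMIs in 22 of 728 cells. At 5,000 UMIs per cell *Nfe2* was found in 26.5% of cluster 6 cells (21.7–31.8%) and 8.86% of cluster 5 cells (7.5–10.4%). The endothelial clusters together had 0.38% (0.248–0.556%), within the interval of the reference clusters 3 and 4 (0.133%, 0.00337–0.740%), which rested on 1 cell. Cluster 0 alone had 0.831%, above that interval, though the intervals of these shares overlapped. The level of cluster 0 (0.0135–0.0303) lay above that of clusters 3 and 4 together (0.00791, 0.00442–0.01304), and these intervals did not overlap.

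*Mef2c* (ENSMUSG00000005583, chromosome 13, 83504034 to 83667080, plus strand) was found at high level in more clusters than *Gata1*, *Klf1* or *Nfe2*. It stood at 4.07 UMIs per 10,000 in cluster 6 (3.95–4.20; 4.18, 4.20 and 3.8 by library) and at 3.45 in cluster 5 (3.4–3.5; 3.45, 3.41 and 3.49 by library), and every library of cluster 6 was above every library of cluster 5. The endothelial clusters followed with 2.39 in cluster 2, 2.01 in cluster 1 and 1.51 in cluster 0. This order was seen in each library and was the opposite of that of *Zfpm1*. Cluster 4 had 0.724 and cluster 3 had 0.282. At 5,000 UMIs per cell *Mef2c* was found in 81.6% of cells in cluster 6, 70.8% in cluster 5 and 65.1% in clusters 0, 1 and 2, against 21.2% in clusters 3 and 4 (18.3–24.3%). Single cells of cluster 4 held up to 24 *Mef2c* UMIs and up to 13 *Zfpm1* UMIs, with medians of 2 and 1.5 in cells with any. For *Mef2c* and *Zfpm1*, clusters 3 and 4 are therefore a comparison only and not a level of free RNA, which was not tested.

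**Figure D1:**
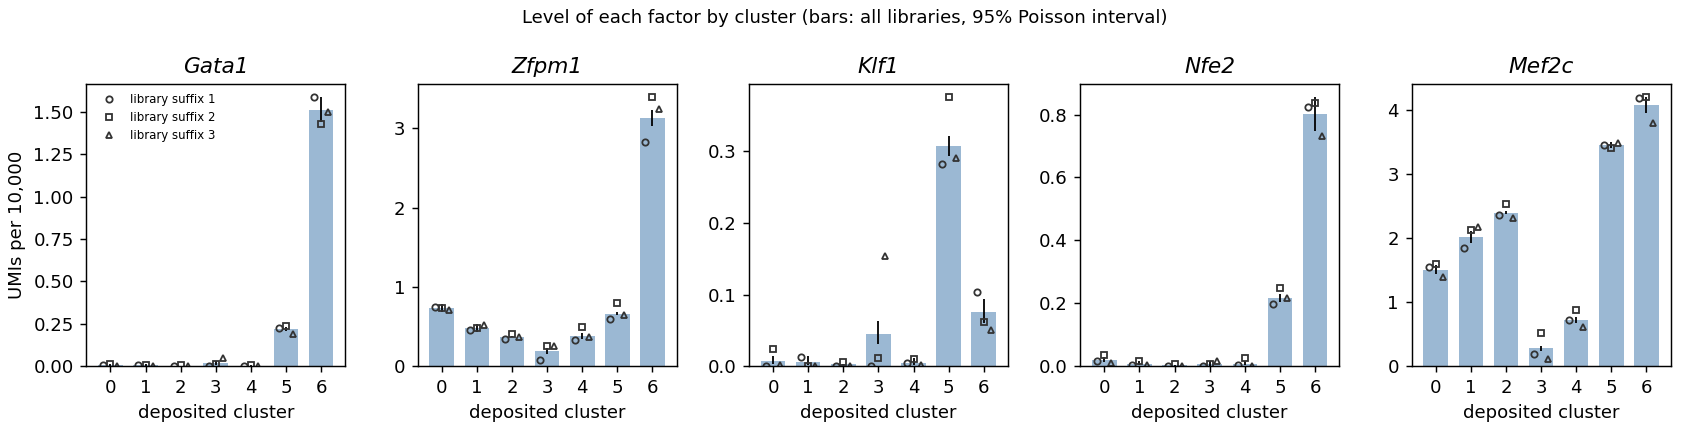
Level of each of the 5 factors (UMIs per 10,000, a separate scale for each panel) in the 7 deposited clusters. Bars are all libraries together with the 95% Poisson interval and open symbols are the 3 library suffixes; *Gata1*, *Zfpm1* and *Nfe2* peak in cluster 6, *Klf1* peaks in cluster 5 at 0.307, and *Mef2c* is high in clusters 5 and 6 and intermediate in clusters 0 to 2.

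Counted by the threshold of 0.5 counts per 10,000 in each cell as deposited, *Gata1* was in 14.6% of cells in cluster 5 and 76.8% in cluster 6, *Zfpm1* in 30.5% and 91.0%, *Klf1* in 12.5% and 5.16%, *Nfe2* in 17.0% and 58.7%, and *Mef2c* in 86.7% and 95.8%. *Klf1* alone of the 5 was in a larger share of cluster 5 than of cluster 6.

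The question put to clusters 5 and 6 was how the 5 factors divide between them. Of the 5, 3 were at least 2-fold higher in cluster 6 and 1 in cluster 5. The log2 ratio of cluster 6 to cluster 5 was 2.80 for *Gata1* (2.70 to 2.91; 2.58 to 2.97 across libraries), 2.24 for *Zfpm1* (2.17 to 2.30; 2.09 to 2.33) and 1.89 for *Nfe2* (1.76 to 2.01; 1.74 to 2.06). *Klf1* went the other way with -2.03 (-2.37 to -1.71; -2.60 to -1.44), a 4.09-fold higher level in cluster 5. *Mef2c* stayed within 2-fold at 0.24 (0.19 to 0.29; 0.12 to 0.30). A summed level alone does not tell fewer expressing cells from less RNA per cell. As deposited, *Gata1* was in 17.8% of cells in cluster 5 and 82.9% in cluster 6, with medians of 4 and 5 UMIs in cells with any. For *Zfpm1* these values were 43.4% and 92.3%, with medians of 3 and 10, and for *Nfe2* 32.4% and 76.1%, with medians of 2 and 3. *Klf1* was in 15.5% and 12.3%, with medians of 5 and 2. Of the 8,341 genes with at least 0.1 UMIs per 10,000 in either cluster, 8.48% were at least 2-fold higher in cluster 6 and 9.72% in cluster 5, and the median over these genes was -0.06. The clusters were made by the authors from these same counts, so the ratios describe them and are not independent evidence.

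Against the endothelial clusters 0, 1 and 2 together, *Gata1*, *Klf1* and *Nfe2* were past 2-fold in cluster 5, with log2 ratios of 6.05 (5.65 to 6.47), 6.63 (6.23 to 7.07) and 5.54 (5.21 to 5.90). *Zfpm1* (0.70) and *Mef2c* (0.58) were not. In that comparison 9.38% of 8,859 genes were at least 2-fold higher in cluster 5. In cluster 6 the log2 ratios to the endothelial clusters were 8.85 for *Gata1*, 7.43 for *Nfe2*, 2.94 for *Zfpm1* and 0.82 for *Mef2c*, and 10.0% of genes were at least 2-fold higher there. *Klf1* had a log2 ratio of 4.60 (4.08 to 5.14) in cluster 6 but lay below the minimum of 0.1 UMIs per 10,000 and was not counted. The large ratios rest on few endothelial UMIs, namely 53 of *Gata1*, 50 of *Klf1* and 75 of *Nfe2* in 6,923 cells. They were smallest in library suffix 2, in which the endothelial levels of these 3 genes were highest. What free RNA adds to those levels was not tested.

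**Figure D2:**
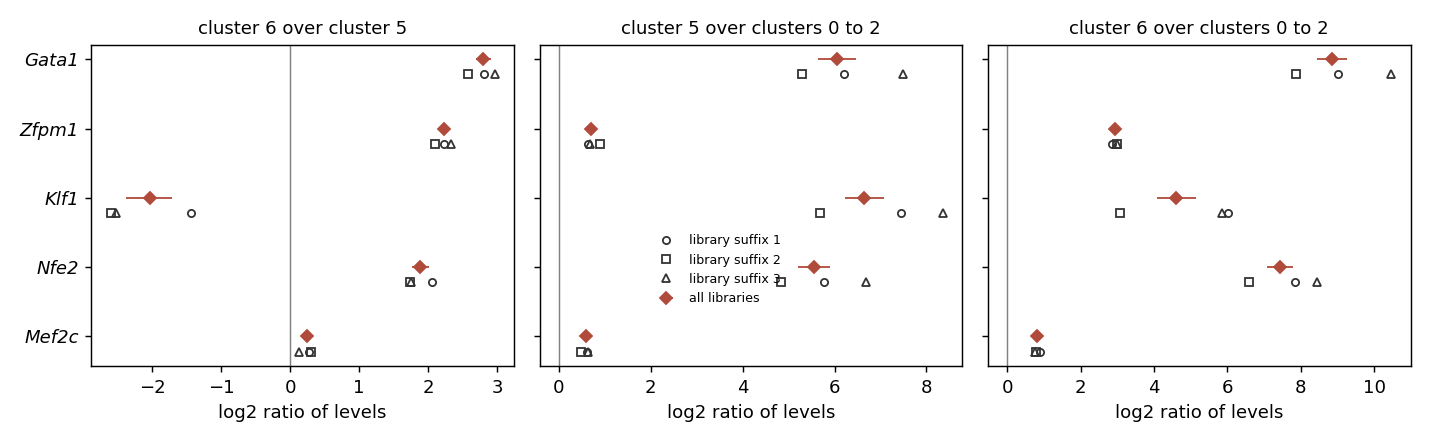
Log2 ratio of the level of each factor between clusters. Diamonds are all libraries together with the exact conditional 95% interval and open symbols the 3 library suffixes; *Klf1* is the 1 factor to the left of 0 for cluster 6 over cluster 5, at -2.03, and *Mef2c* lies nearest to 0 there.

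The partners of GATA1 were then described from a fixed list of 12 genes that bind with it, oppose it or precede it. Between clusters 6 and 5, 3 of the 12 were at least 2-fold higher in cluster 6 and none in cluster 5, with a median log2 ratio of 0.34. Over all 8,341 genes these shares were 8.48% and 9.72%. The 3 were *Gfi1b* (log2 ratio 2.92), a repressor that acts with GATA1, *Tal1* (1.87), its helix-loop-helix partner, and *Fli1* (1.61). *Fli1*, an ETS factor that serves both endothelium and megakaryocytes, stood at 0.750 in cluster 5, 2.29 in cluster 6 and 1.33 in clusters 0, 1 and 2. *Lyl1* (log2 ratio 0.72), *Lmo2* (0.59), *Runx1* (0.35), *Cbfa2t3* (0.33) and *Etv6* (0.25) were also higher in cluster 6 in each library, by less than 2-fold. *Ldb1* (-0.06) and *Kdm1a* (0.05) had intervals that included 0, and *Tcf3* was lower in cluster 6 in each library (-0.27). *Gata2*, the GATA factor of stem cells and mast cells that GATA1 replaces as cells mature, was lower in cluster 6, at 0.282 against 0.392 UMIs per 10,000 (log2 ratio -0.47, -0.65 to -0.30), and its highest level was 0.824 in cluster 0.

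The remaining GATA and FOG genes marked other clusters. *Gata6*, a factor of mesoderm and endoderm, was highest in cluster 0 (1.05 UMIs per 10,000) and cluster 4 (0.756), with 0.0213 and 0.0223 for clusters 5 and 6. *Gata3* had 0.480 in cluster 0 and 0.334 in cluster 4, and *Gata4* (0.247) and *Gata5* (0.137) were highest in cluster 4. *Zfpm2*, which encodes FOG2 of heart and gonad, had 0.129 in cluster 2 and at most 0.0123 in clusters 5 and 6. Of these 6 listed genes, *Gata2* alone reached 0.1 UMIs per 10,000 in cluster 5 or 6.

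Among 10 KLF genes and erythroid coregulators, 8 reached that minimum in cluster 5 or 6, and 6 of these were at least 2-fold higher in cluster 5 (median log2 ratio -1.35). They were *Ikzf1* (-3.48), *Myb* (-2.86) and *Bcl11a* (-2.70), which act in blood progenitors, and *Klf6* (-1.59), *Klf4* (-1.11) and *Klf3* (-1.10). *Klf2*, the flow-responsive endothelial KLF, was within 2-fold (-0.27), as was *Zbtb7a* (0.12), a partner in globin silencing. *Klf8* (0.160 UMIs per 10,000 in cluster 3) and *Sox6* (0.679 in cluster 0) were low in clusters 5 and 6, at 0.0254 or less. *Klf1* had the same direction as these 6 genes. Over all 8,341 genes, 9.72% were at least 2-fold higher in cluster 5, so this direction does not link *Klf1* to any of them.

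Of 8 partners and relatives of NFE2, 5 reached the minimum and none was past 2-fold, where 8.48% and 9.72% of all genes were, so with 5 genes this is near the share over all genes. *Mafg* (0.76) and *Mafk* (0.49), the small MAF proteins that pair with NFE2, were higher in cluster 6 in each library, at 1.13 and 0.146 UMIs per 10,000, and *Mafg* was also high in cluster 1 (1.28). *Nfe2l2* (0.20), *Nfe2l1* (-0.01) and *Bach1* (-0.48), the last a repressor at the same sites, were within 2-fold. *Maff*, *Bach2* and *Nfe2l3* had at most 0.0347 in either cluster.

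Of 8 MEF2 genes and class IIa deacetylases, 6 reached the minimum. Over all 8,341 genes, 8.48% were at least 2-fold higher in cluster 6 and 9.72% in cluster 5. *Hdac5* was higher in cluster 6 (1.46, 0.336 against 0.122 UMIs per 10,000), and *Hdac7* (-1.08) and *Hdac9* (-3.57), which bind and repress MEF2 proteins as *Hdac5* does, were higher in cluster 5. *Mef2a* (0.31), *Mef2d* (0.07) and the kinase gene *Mapk7* (-0.25), an activator of MEF2 proteins, were within 2-fold. *Hdac4* had 0.0914 and 0.0826 in clusters 5 and 6, and *Mef2b* had no UMI in any of the 9,562 cells.

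The genes that carry out the programmes divided in the same comparison, in which 8.48% of all 8,341 genes were at least 2-fold higher in cluster 6 and 9.72% in cluster 5. Of 22 platelet genes of late megakaryocytes, 21 reached the minimum and all 21 were at least 2-fold higher in cluster 6, led in level by *Pf4* (167 UMIs per 10,000), *Thbs1* (10.6), *Gp1bb* (8.11) and *Plek* (8.07). Of 18 myeloid genes, 17 reached it and all 17 were higher in cluster 5, led by *C1qb* (6.98), *Prtn3* (4.83), *C1qc* (3.8) and *S100a9* (3.74). The 4 of 12 mast cell, basophil and eosinophil genes that reached it, *Prg2*, *Hdc*, *Gzmb* and *Cpa3*, were all higher in cluster 5. Of 20 erythroid genes 13 reached it, with 4 higher in cluster 6 (*Sptb*, *Epor*, *Hemgn* and *Hbb-bh1*) and 1, *Ermap*, higher in cluster 5. Erythroid genes below the minimum went both ways. *Tspan33* (log2 ratio -2.21), *Rhd* (-2.17), *Ank1* (-1.11) and *Car1* (-1.05) were higher in cluster 5. *Epb42* (2.11) and *Alas2* (1.08) were higher in cluster 6, and the interval of *Slc4a1* included 0. The erythroid genes of highest level in cluster 5 were the globins *Hbb-y* (11), *Hba-x* (5.82), *Hbb-bh1* (2.37) and *Hba-a1* (1.56). These erythroid values differed by library: the 20 genes summed to 34.1, 39.2 and 2.43 UMIs per 10,000 in cluster 5 and to 54.3, 43.2 and 5.98 in cluster 6, with library suffix 3 lowest in both. Of 8 endothelial genes, 1 (*Kdr*, 1.08) was at least 2-fold higher in cluster 6, where *Egfl7* (2.22), *Pecam1* (0.776) and *Emcn* (0.668) were the others of highest level. With 8 genes this is near the share over all genes.

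How many of the 5 factors 1 cell held was then counted at 5,000 UMIs per cell, which kept 1,568 cells of cluster 5 and 309 of cluster 6. In cluster 5, 63.0% of cells held 1 factor (60.6–65.4%), 14.9% held none and 22.1% held at least 2 (20.0–24.2%), with 21.1%, 24.7% and 18.8% by library. In cluster 6, 81.6% held at least 2 (76.8–85.7%), with 88.0%, 75.7% and 85.7% by library, and 31.1% held 3. The most common set in cluster 5 was *Mef2c* alone, in 881 cells (56.2%). In cluster 6 the most common sets were *Zfpm1* with *Mef2c* in 81 cells (26.2%) and *Gata1*, *Zfpm1* and *Mef2c* in 53 (17.2%). All 5 factors were found together in 4 cells of cluster 5 (0.255%) and in 0 of the 309 cells of cluster 6, which allows a share of up to 1.19%. A factor that is not detected in a thinned cell may still be expressed there, so these are shares of cells with a UMI.

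**Figure D3:**
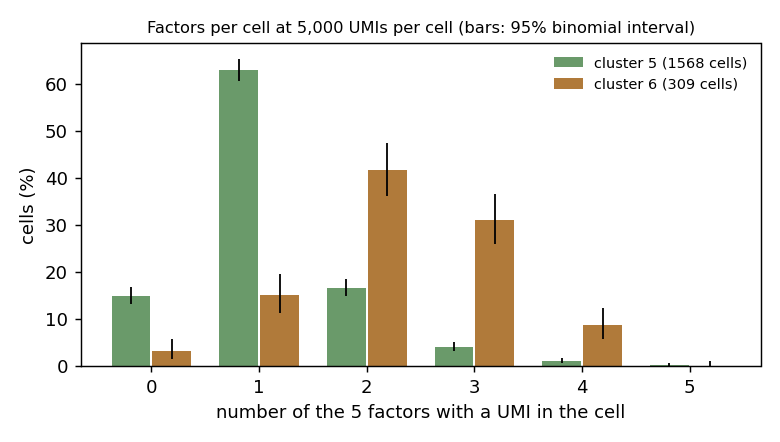
Share of cells (%) by the number of the 5 factors with a UMI, after thinning to 5,000 UMIs per cell, in clusters 5 and 6 with 95% binomial intervals. Cluster 5 peaks at 1 factor (63.0%) and cluster 6 at 2 (41.7%).

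Within cluster 5, *Gata1*, *Zfpm1*, *Klf1* and *Nfe2* were each found in a larger share of cells that held another of the 4 than of cells that did not, in all 3 libraries, and *Mef2c* was found in a smaller share. Of the 126 cells with *Klf1*, 30.2% held *Gata1* (22.3–39.0%), against 4.16% of the 1,442 cells without *Klf1* (3.19–5.32%). *Zfpm1* was held by 69.0% against 15.9%, and *Nfe2* by 24.6% (17.4–33.1%) against 7.49% (6.18–8.97%). *Mef2c* was held by 26.2% of the cells with *Klf1* (18.8–34.8%) and 74.7% of those without (72.4–76.9%). Each of these differences had the same direction in all 3 libraries: *Gata1* was in 34.0%, 27.1% and 30.0% of the *Klf1*+ cells by library and in 3.45%, 5.80% and 2.30% of the *Klf1*- cells. Before thinning, the *Klf1*+ cells had a median of 43,268.5 UMIs and the *Klf1*- cells 35,550. The shares depend on the depth used, since at 10,000 UMIs per cell *Gata1* was in 49.4% of *Klf1*+ cells.

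The same was seen from *Gata1*. Of the 98 cells of cluster 5 with *Gata1*, 55.1% held *Zfpm1* (44.7–65.2%), 38.8% held *Klf1* (29.1–49.2%) and 20.4% held *Nfe2* (12.9–29.7%). In the 1,470 cells without *Gata1* these shares were 17.8%, 5.99% and 8.10%. *Mef2c* was in 35.7% and 73.1%. Of the 139 cells with *Nfe2*, 40.3% held *Zfpm1* and 22.3% *Klf1*, and 51.8% held *Mef2c* against 72.6% of those without *Nfe2*. The pairing of *Nfe2* with *Klf1* was thus present but left most *Nfe2*+ cells, 108 of 139, without a *Klf1* UMI.

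**Figure D4:**
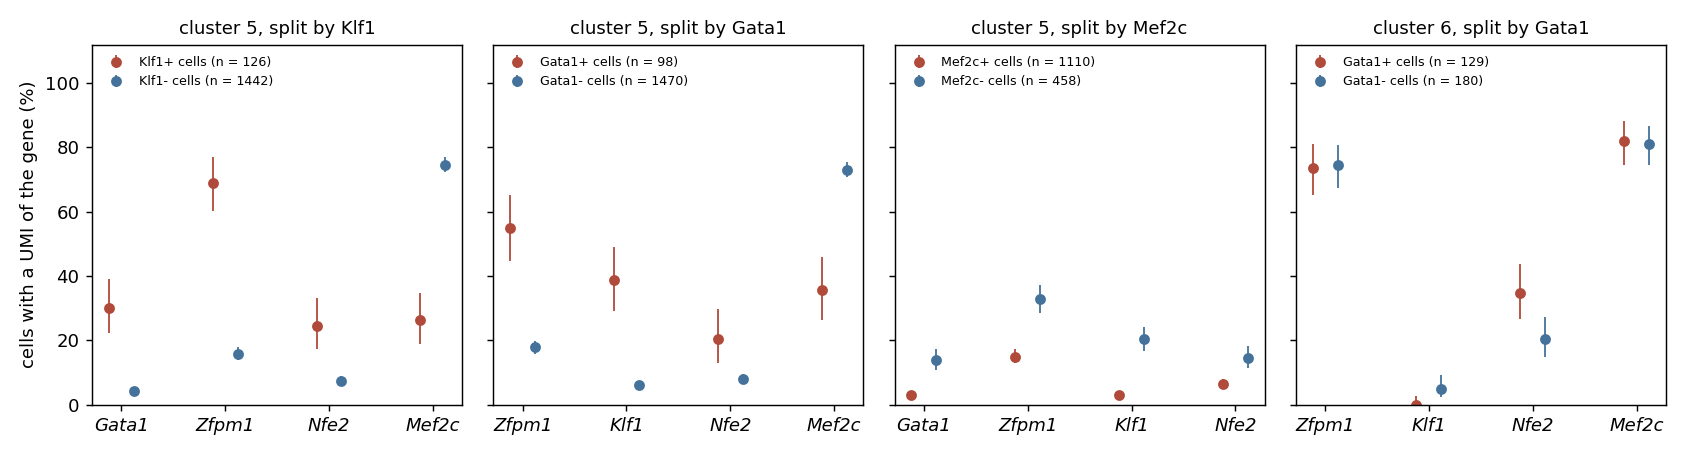
Share of cells (%) with a UMI of each other factor among cells with (red) and without (blue) the factor named above the panel, at 5,000 UMIs per cell, with 95% binomial intervals. In cluster 5 *Klf1*+ cells lie above *Klf1*- cells for *Gata1*, *Zfpm1* and *Nfe2* and below them for *Mef2c* (26.2% against 74.7%); in cluster 6 *Gata1*+ and *Gata1*- cells differ little for *Zfpm1* and *Mef2c*.

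In cluster 6 the factors were less clearly linked. *Nfe2* was in 28.4% of *Zfpm1*+ cells (22.6–34.7%) and 21.25% of *Zfpm1*- cells (12.9–31.8%). *Mef2c* was in 83.4% (77.9–88.0%) and 76.25% (65.4–85.1%). Both were higher with *Zfpm1* in all 3 libraries, but the intervals overlapped. *Zfpm1* was in 73.6% of the 129 *Gata1*+ cells (65.2–81.0%) and 74.4% of the 180 *Gata1*- cells (67.4–80.6%), and *Mef2c* in 82.2% and 81.1%. *Nfe2* was in 34.9% of *Gata1*+ cells (26.7–43.8%) and 20.6% of *Gata1*- cells (14.9–27.2%), with the same direction in 2 of 3 libraries. That difference did not hold at other settings: thinning to 10,000 UMIs gave 53.3% and 50.0%, and asking for at least 2 UMIs gave 3.92% and 4.65%. *Klf1* was in 0 of the 129 *Gata1*+ cells, which allows a share of up to 2.82%, and in 9 of the 180 *Gata1*- cells (5.0%, 2.31–9.28%). At this depth *Gata1* and *Klf1* were therefore found together in 38 cells of cluster 5 and in none of cluster 6. This depends on depth, since *Gata1* was found at 5,000 UMIs in 34.2% of the 38 cells of cluster 6 that held any *Klf1* UMI as deposited.

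What else the cells with each factor held was described by sorting the cells of cluster 5 in order, first by *Klf1*, then by *Gata1*, then by *Nfe2*. This gave 126 *Klf1*+ cells, 60 *Gata1*+ cells without *Klf1*, 98 *Nfe2*+ cells without the other two and 1,284 cells with none of them. The order was set after the single splits had been seen. Erythroid genes other than globins summed to 8.41 UMIs per 10,000 in the *Klf1*+ cells (7.71–9.16; 10.1, 7.15 and 8.10 by library), 5.37 in the *Gata1*+ cells (4.57–6.26), 1.90 in the *Nfe2*+ cells (1.53–2.33) and 0.815 in the rest (0.746–0.888). *Ermap*, an erythroid membrane gene, was in 31.7% of *Klf1*+ cells against 1.73% of all *Klf1*- cells, *Epor*, the erythropoietin receptor, in 25.4% against 3.19%, and *Car2*, carbonic anhydrase, in 73.0% against 16.9%.

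Globins were higher in the *Klf1*+ cells too, but unevenly. Their sum was 148 UMIs per 10,000 against 12.3 in *Klf1*- cells, with 347, 38.1 and 4.00 by library in *Klf1*+ cells. The embryonic *Hbb-y*, *Hbb-bh1* and *Hba-x* summed to 128 (301, 32.0 and 1.1 by library) and the adult alpha and beta globins to 20.2 (45.2, 6.10 and 2.9). Library suffix 1 thus carried most of the embryonic sum, and in library suffix 3 the adult globins were the higher. Few cells held these molecules. *Hbb-y* reached 70.7 UMIs per 10,000 in *Klf1*+ cells and 6.16 in *Klf1*- cells, yet was found in 5.56% and 6.03% of them, so the difference in its level lay in a few cells and not in the share of cells. Adult and embryonic globin genes are similar in sequence, and how their reads were divided was not tested.

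The *Gata1*+ cells without *Klf1* held genes of mast cells and basophils beside erythroid ones in 2 of the 3 libraries. The 12 mast cell, basophil and eosinophil genes summed to 3.93 UMIs per 10,000 (3.26–4.71) against 0.263 in the 38 cells with both *Gata1* and *Klf1* (0.0854–0.614). By library the first value was 3.47, 4.94 and 0.286, against 1.49, 1.56 and 1.91 in the 1,382 cells with neither factor, so that the direction was the opposite in library suffix 3. *Hdc*, which makes histamine, was in 18.3% of these cells against 4.56% of the cells with neither factor, and *Cpa3*, a mast cell protease, in 13.3% against 3.04%. *Gata2*, which mast cells keep, was in 35.0% against 11.9%. In *Klf1*+ cells *Gata2* was in 14.3%, against 12.9% without *Klf1*.

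The *Nfe2*+ cells without *Klf1* or *Gata1* held myeloid progenitor genes. Neutrophil and myeloid progenitor genes summed to 43.9 UMIs per 10,000 (42.1–45.8; 77.2, 27.2 and 28.5 by library) against 13.8 in the cells with none of the 3 factors (13.5–14.1; 19.8, 8.23 and 13.2 by library). *Mpo*, the myeloperoxidase of granulocyte progenitors, was in 55.1% of these cells against 22.0%, and *Myb* in 49.0% against 16%. Macrophage genes were low in all 3 classes with a factor, at 1.63, 1.97 and 1.84 UMIs per 10,000, and stood at 26.5 in the rest. *C1qb* was in 6.35% of *Klf1*+ cells and in 55.8% of the cells with none of the 3. Endothelial genes differed less, between 5.81 and 6.65 over the 4 classes, and megakaryocyte genes between 1.55 and 2.07.

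**Figure D5:**
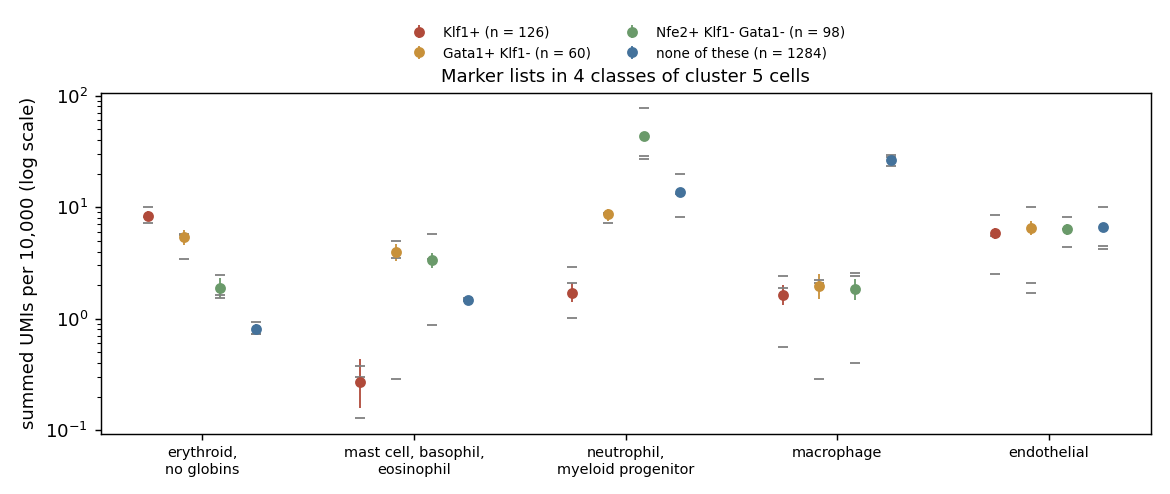
Summed UMIs per 10,000 (log scale) of 5 marker lists in 4 classes of cluster 5 cells at 5,000 UMIs per cell. Dots are all libraries with 95% Poisson intervals and grey dashes the 3 libraries; erythroid genes without globins stand at 8.41 in *Klf1*+ cells and 0.815 in the cells with none of the 3 factors, while macrophage genes are at 26.5 in the latter and below 2 in the other classes.

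*Mef2c* marked the opposite side of cluster 5. The 1,110 cells with *Mef2c* held 25.9 UMIs per 10,000 of macrophage genes (25.5–26.3) and the 458 cells without it held 12.7 (12.3–13.2), with the same direction in each library. The summed levels of the *Mef2c*+ cells were lower for the neutrophil and myeloid progenitor genes (6.77 against 33.3), the mast cell, basophil and eosinophil genes (0.386 against 4.51) and the erythroid genes without globins (0.969 against 3.36), again in each library. These sums do not describe the median cell. It held 1 UMI of the neutrophil and myeloid progenitor genes with *Mef2c* and 0 without. For the mast cell and erythroid lists it held 0 in both classes. *Csf1r*, the macrophage growth factor receptor, was in 52.1% of *Mef2c*+ cells and 25.3% of *Mef2c*- cells, and *Spi1*, the myeloid factor PU.1, in 75.9% and 51.7%. *Hdc* was in 1.44% and 14.0%. In cluster 2, where *Mef2c* was in 3,677 of 5,377 cells, endothelial genes stood at 36.2 with it and 34.3 without it (log2 ratio 0.08, 0.06 to 0.10). Globins there differed in both directions, with adult globins at 0.405 with *Mef2c* and 0.185 without (lower with it in library suffix 2) and embryonic globins at 0.604 and 1.18.

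In cluster 6 the cells with *Nfe2* held more of the megakaryocyte genes. These summed to 237 UMIs per 10,000 in the 82 *Nfe2*+ cells (232–242; 250, 186 and 349 by library) and 168 in the 227 *Nfe2*- cells (166–170; 213, 126 and 198 by library). Over all of cluster 6, *Pf4* made up 167 of the 203 UMIs per 10,000 of this list, so its sums rest mostly on that gene. *Gp6*, the collagen receptor of platelets, was in 41.5% against 22.9% and *Gp1ba*, the receptor for von Willebrand factor, in 47.6% against 30.4%. The 129 *Gata1*+ cells held 218 (214–222; 248, 156 and 291 by library) against 163 in *Gata1*- cells (161–166; 194, 135 and 209 by library). For *Zfpm1* the sums were 187 and 185, and for *Mef2c* 184 and 196, each with an order that differed between libraries. Erythroid genes without globins stood at 2.99 with *Gata1* (2.58–3.45) and 3.41 without (3.04–3.81), and with globins at 15.1 and 79.1, lower with *Gata1* in each library. Few cells carried that gap, since the median cell held no globin UMI in either class. Adult globins stood at 9.98 and 9.19, and embryonic globins at 2.08 and 66.5, with 0.571 and 0.5 in library suffix 3.

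*Klf1* split cluster 6 the other way. Only 9 thinned cells held it, so the 38 cells with any *Klf1* UMI as deposited were compared with the other 271, a split added after the first had been seen. The megakaryocyte genes summed to 58.9 UMIs per 10,000 in these cells (55.5–62.4; 55.5, 19.8 and 121 by library) and 204 in the others (202–207; 258, 151 and 268 by library). Erythroid genes without globins stood at 6.21 (5.14–7.44) and 2.82 (2.54–3.12), higher with *Klf1* in each library. *Pf4*, which made up most of the megakaryocyte sum over all of cluster 6, was in 52.6% of the *Klf1*+ cells and 92.6% of the others. *Car2* was in 71.1% and 42.8%, and *Gata1* in 34.2% and 42.8%. The *Klf1*+ cells were deeper before thinning, with a median of 42,163.5 UMIs against 30,662, and the part of that depth in the split was not tested.

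Outside clusters 5 and 6 *Klf1* UMIs were rare and sat in unlike cells. In cluster 0, 8 cells held all 10 UMIs, and 7 of these cells were of library suffix 2. Thinned to 5,000 UMIs, they carried 331.5 UMIs per 10,000 of erythroid genes against 0.880 in the other cells of that cluster, and 38.2 of endothelial genes against 52.1. Their median depth was 7,832 UMIs against 14,245. In cluster 3 the 6 cells with *Klf1* carried 1.67 of erythroid genes (0.541–3.89) against 0.635. Scrublet, a doublet finder run on each library, called 8 of the 9,562 cells doublets (0.0837%), so few that its calls cannot be relied on here. The study calls the cells singlets, and no step that removed doublets is described. Whether the *Klf1*+ cells of cluster 0 are doublets was not tested.

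The genes whose levels were most like those of each factor were found by Pearson's r of log2(UMIs per 10,000 + 0.05) over 21 sums, the 7 clusters in each of the 3 libraries, among 8,987 genes with at least 0.2 in the highest cluster. The 21 sums share libraries, depth and clusters, so r is a description. *Gata1* was most like *Cited4* (r = 0.994), *Alox5* (0.992) and *P2rx1* (0.991), and *Nfe2* was most like *Tspan32* (0.994), *P2rx1* (0.992) and *Alox5* (0.992). Both sets had their highest level in cluster 6 and the next in cluster 5. *Zfpm1* was most like *Mrtfa* (0.969), *Arhgap6* (0.964) and *Zyx* (0.957), *Klf1* most like *Arhgap9* (0.93), *Itgal* (0.927) and *Mcrip2* (0.916), and *Mef2c* most like *Tmsb4x* (0.980), *Actr3* (0.979) and *Arpc5* (0.964). *Arhgap9* had 0.480 UMIs per 10,000 for cluster 5 and 0.0548 for cluster 6, and *Tmsb4x*, an actin-binding peptide found in many cells, at 138 and 166.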

How the data were processed

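Single-cell libraries (10x Genomics 3′ v3 chemistry) were made from 3 pools of heart endothelium. Reads were aligned to mm10 by the authors with Cell Ranger 3.1.0, libraries being merged in the same program under its batch correction, and the submitters' notes also name Seurat 3.1.5. The annotation is not given in the sources used here. What the authors deposited are raw UMI counts for each gene and cell, and a Leiden cluster number for each cell, used as given. Their log-transformed table was not used. The study describes 9,562 singlets of at least 5,000 UMIs. The table holds 9,562 cells, 90 of them below that depth, and the library pairs share 7, 2 and 4 barcodes. Of 27,998 rows, 27,722 were named from GENCODE M21, 276 kept their identifier, and equal names were summed.

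The members and gene lists were chosen with earlier results of these data known. No file names the pool of a library suffix, and the clusters were made from these same counts, so no count model between clusters was fitted. Cells were also scaled to counts per 10,000 UMIs (CPTT) and called positive above 0.5. They were thinned without replacement (random seed 1) and split by at least 1 UMI, with at least 20 cells in each class unless stated. Intervals are exact Poisson for levels, Clopper–Pearson for shares and conditional binomial for ratios. Partners and relatives of each factor are all named. Other lists are given by counts and sums with their 4 highest genes in the cluster described, and 3 genes most like each factor are named. Single genes of the marker lists within split cells, and those named as past 2-fold, were chosen after their values were seen. Scripts were tested on simulated data. The tools were scanpy 1.11.5, scipy 1.17.1, pandas 2.3.3, numpy 2.4.6 and matplotlib 3.10.9 under Python 3.11.15.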

Additional observations from a re-analysis of the deposited data

How the results depend on the processing

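Depth and threshold mattered most for the shares of cells. Of all alternative values tried, 153 were counted as the same as the main result and 94 as moved. With the mean of each cell's counts per 10,000 (CPTT) in place of summed UMIs, the level of *Gata1* was 0.185 in cluster 5 and 1.42 in cluster 6, that of *Zfpm1* 0.623 and 3.0, and that of *Klf1* in cluster 5 0.259, and the log2 ratio of cluster 6 to cluster 5 was 2.94 for *Gata1*. Thinned to 5,000 UMIs, the ratio was 3.01 for *Gata1*, 2.32 for *Zfpm1* and 1.65 for *Nfe2*.

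The shares of cells above 0.5 CPTT were compared with those above 0 CPTT, above 1 CPTT and after thinning to 5,000 UMIs. For *Gata1* these 3 were 17.8%, 8.84% and 6.25% in cluster 5 and 82.9%, 61.0% and 41.7% in cluster 6. For *Klf1* they were 15.5%, 10.5% and 8.04% in cluster 5 and 12.3%, 0.645% and 2.91% in cluster 6. For *Nfe2* they were 32.4%, 6.42% and 8.86% in cluster 5 and 76.1%, 32.6% and 26.5% in cluster 6. For *Zfpm1* in cluster 5 they were 43.4%, 24.3% and 20.2%, and for *Mef2c* there 91.2%, 80.3% and 70.8%. In cluster 6, *Zfpm1* was in 74.1% after thinning, and *Mef2c* was in 92.3% above 1 CPTT and 81.6% after thinning.

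For cells with several factors, the alternatives to 5,000 UMIs and 1 UMI were 10,000 UMIs and at least 2 UMIs. At least 2 factors were then in 34.4% and 3.38% of cells in cluster 5 and 95.5% and 35.6% in cluster 6. Among *Klf1*+ cells of cluster 5, *Gata1* was in 49.4% and 4.65%, *Zfpm1* in 82.1% and 39.5%, and *Mef2c* in 50.0% and 6.98%. Among *Klf1*- cells, *Gata1* was in 1.38% at 2 UMIs, *Zfpm1* in 21.5% and 6.95%, and *Mef2c* in 88.1% and 46.8%. In cluster 6, *Nfe2* was in 53.3% and 3.92% of *Gata1*+ cells and in 50.0% and 4.65% of *Gata1*- cells, so that its order turned at 2 UMIs.

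The counts of genes past 2-fold were taken with a minimum of 1 UMI per 10,000, at 4-fold and with no minimum beyond 3 UMIs. They were 213, 335 and 2,691 for higher in cluster 6 than in 5, 128, 409 and 2,064 for higher in cluster 5, 153, 459 and 2,713 for cluster 5 over clusters 0 to 2, and 254, 458 and 4,118 for cluster 6 over clusters 0 to 2. Leaving out the called doublets, another random seed and leaving out the 5% of cells with most UMIs moved none of the 25, 10 and 10 results tried. Only 8 of 9,562 cells were called doublets, so leaving them out could move little and does not show what doublets add.

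Leaving out each library suffix in turn gave levels of 0.210 to 0.230 in cluster 5 and 1.46 to 1.55 in cluster 6 for *Gata1*, 0.622 to 0.706 and 3.0 to 3.32 for *Zfpm1*, 0.286 to 0.325 and 0.0567 to 0.0852 for *Klf1*, 0.206 to 0.230 and 0.784 to 0.829 for *Nfe2*, and 3.43 to 3.47 and 4.01 to 4.19 for *Mef2c*. The log2 ratios ranged from 2.72 to 2.88, 2.19 to 2.27, -2.52 to -1.82, 1.77 to 1.94 and 0.21 to 0.29 in the same order. The shares above 0.5 CPTT ranged from 14.4% to 14.8% and 71.1% to 87.3% for *Gata1*, 27.3% to 32.4% and 89.1% to 95.6% for *Zfpm1*, 11.4% to 13% and 3.48% to 6.13% for *Klf1*, 15.9% to 18.0% and 56.2% to 64.6% for *Nfe2*, and 85.6% to 88.7% and 95.4% to 96.8% for *Mef2c* in clusters 5 and 6. At least 2 factors were in 20.3% to 22.9% and 78.1% to 87.3%. In *Klf1*+ and *Klf1*- cells the ranges were 27.8% to 32.8% and 3.04% to 4.66% for *Gata1*, 67.2% to 70.8% and 13.9% to 16.9% for *Zfpm1*, and 19.4% to 30.4% and 74.0% to 75.2% for *Mef2c*. *Nfe2* was in 28.6% to 39.7% of *Gata1*+ and 18.4% to 25.0% of *Gata1*- cells of cluster 6. No ratio changed sign.

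Of the 3 genes most like each factor, the counts shared with the main 3 under 7 cluster sums, a pseudocount of 0.5 and a minimum of 1 were 0, 1 and 2 for *Gata1*, 1, 3 and 2 for *Zfpm1*, 0, 2 and 0 for *Klf1*, 2, 1 and 2 for *Nfe2*, and 2, 1 and 3 for *Mef2c*. Ratios taken within each library, which pair the clusters, are given in the report.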
